A study of Mus musculus with 14 samples.

Results

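The transcripts of 8 genes of a tissue repair and IL-13 sensing axis were examined in sorted mouse lung type 2 innate lymphoid cells (ILC2s). They were taken by gene symbol, 8 of the 53278 genes listed, and comprised 4 ligands of the epidermal growth factor receptor (Areg, Hbegf, Ereg and Tgfa), the receptor itself (Egfr), the protease that sheds these ligands (Adam17) and both IL-13 receptors (Il13ra1 and Il13ra2). After IL-33, Areg, Hbegf and Egfr rose under every alternative tried, Il13ra2 rose on few reads with a call that was lost in 8 of 16 alternatives, and none of the 8 was called lower, where 32.3% of all genes tested were called. After loss of Blimp-1, none of the 8 was called with all libraries, where 0.756% of all genes were, and Ereg and Il13ra1 were called higher without Control replicate 2, where 8.25% of all genes were called higher and 5.72% lower. The study asked which factors secreted by ILC2s after the alarmin IL-33 could promote the transcriptional repressor Blimp-1, and what Blimp-1 does in activated ILC2s.

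In the stimulation experiment, 8 female B6 mice formed an Unstimulated group (n = 4) and an IL-33-stimulated group (n = 4, 20 ng/mL IL-33 for 24 h), with 1 library per mouse by the series description. That description and the paper's methods have the Unstimulated cells cultured without IL-33 for 24 h, while the paper's results call them ex vivo. The sample labels give them no culture time. Time in culture and IL-33 therefore cannot be told apart if those cells were not cultured. In the Blimp-1 experiment, age-matched female ControlIL7RaCre (Control, n = 3) and Blimp-1IL7RaCre (Blimp-1-deficient, n = 3) mice were used. By the labels, both groups carried the IL7Ra-driven Cre, and in both the cells were activated for 72 h with 20 ng/mL IL-33 and 20 ng/mL IL-25. The paper's methods add IL-2. By the paper, loss of floxed Blimp-1 with this Cre is not limited to ILC2s and extends to other ILCs and to B, NK and T cells. In all 4 groups the cells were sorted from whole lung as live lineage- CD90.2+ CD3- cells, a gate that names no ILC2-specific marker.

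EGF-family ligands are made as membrane-anchored precursors, and ADAM17 cuts amphiregulin, HB-EGF, epiregulin and TGF-alpha free so that they can reach EGFR on neighbouring cells. ILC2s are known as a source of amphiregulin in the injured airway, where it aids epithelial repair. IL-13, a signature cytokine of these cells, signals through IL-13Ra1 paired with IL-4Ra and on to STAT6, while IL-13Ra2 binds IL-13 tightly and is best known as a decoy that removes it.

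Counts per library ranged from 10470125 (IL-33-stimulated replicate 3) to 32849428 in the stimulation experiment and from 13570188 (Control replicate 2) to 76448945 in the Blimp-1 experiment. These 2 shallowest libraries also stood apart in content, so each of the 8 genes is given with and without them. In Control replicate 2, 72.4% of the counts lay on 4 genes that each took over 5% of it, against at most 0.854% in the other 5 libraries, which left 3743445 counts for all other genes. Its summed stromal and endothelial markers came to 4097 CPM (counts per 1000000 of a library, scaled by the TMM factors of edgeR), against 217 and 338 CPM in Controls 1 and 3. In IL-33-stimulated replicate 3 the macrophage receptor gene Csf1r reached 27.2 CPM, against 0.486 to 2.17 CPM in the other 3 libraries of its group. The myeloid markers did not all go this way. Itgax (7.09 CPM) and Cd68 (7.58 CPM) were the lowest of the group there. Lyz2 (72.7 CPM) and Mrc1 (9.55 CPM) lay within the range of the other libraries, and the rest of the myeloid markers listed were the highest of the group there. All 12 ILC2 markers listed (Gata3 and Il1rl1 among them) were above 3 counts in at least 1 library of every group, the rule used for all marker lists. Their sum was 8709 to 9465 CPM in unstimulated and 5446 to 7738 CPM in stimulated libraries. Of the 12, 10 were called lower and 1 higher after IL-33, where 16.1% of all genes tested were lower and 16.2% higher. T cell marker sums were 48.8 to 58.6 and 13.6 to 25.4 CPM, and mast cell and basophil sums 7.41 to 16.7 and 0.389 to 1.84 CPM, whereas B cell sums were 9.85 to 12.1 and 14.6 to 17.8 CPM. Their part in the members' results was not tested. Prdm1, which encodes Blimp-1, measured 75.2, 92.8 and 74.0 CPM in the 3 Controls, against 14.6, 11.5 and 11.4 CPM in the Blimp-1-deficient cells (log2 fold change -2.68, edgeR adjusted p = 0.00441, and -2.57 without Control replicate 2).

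Length-scaled levels set the genes in order. TPM values, counts divided by gene length and scaled to 1000000 per library, allow genes to be compared within a library. In unstimulated ILC2s the order was Areg (145 ± 43.7 TPM, SD, n = 4), Adam17 (55.4 ± 3.12 TPM), Hbegf (28.3 ± 2.86 TPM), Il13ra1 (3.48 ± 1.32 TPM), Ereg (2.25 ± 1.93 TPM), Tgfa (2.09 ± 0.678 TPM), Egfr (1.80 ± 0.497 TPM) and Il13ra2 (0.537 ± 0.284 TPM). The first 3 did not overlap with their neighbours in any library, whereas the ranges of Il13ra1, Ereg, Tgfa and Egfr overlapped. The range of Il13ra2 overlapped that of Ereg. Areg was thus the main EGFR ligand transcript before stimulation, with 74.4 to 86.4% of the summed TPM of the 4 ligands, and it ranked 1255 among the 26214 genes above 0 TPM. After IL-33 it stood at 1195 ± 229 TPM (SD, n = 4), rank 80, with 91.9 to 94.5% of the ligand TPM.

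The same leading genes held the top places in the other groups. After IL-33, Hbegf (78.4 ± 7.53 TPM, SD, n = 4) stood above Adam17 (50.1 ± 7.11 TPM) with no overlap, the reverse of their order in unstimulated cells, and Egfr (10.6 ± 2.70 TPM) came next. In Controls 1 and 3, Tgfa (6.84 and 10.1 TPM) stood above Ereg (3.90 and 4.38 TPM). In the Blimp-1-deficient libraries Ereg (7.33 to 10.9 TPM, n = 3) stood above Tgfa (4.13 to 7.09 TPM). TPM of Control replicate 2 were left out here because 4 genes took most of its library. Il13ra2 had the lowest mean in every group. It stood above Il13ra1 in IL-33-stimulated replicate 4 (2.57 against 1.73 TPM) and above Ereg in IL-33-stimulated replicate 2 (0.846 against 0.779 TPM). Its share of the summed TPM of both IL-13 receptors was 7.76 to 23.1% in unstimulated and 14.6 to 59.7% in stimulated libraries. That share overlapped between the groups only through IL-33-stimulated replicate 3 (14.6%), and was 38.8 to 59.7% in the other stimulated libraries.

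**Figure D1:**
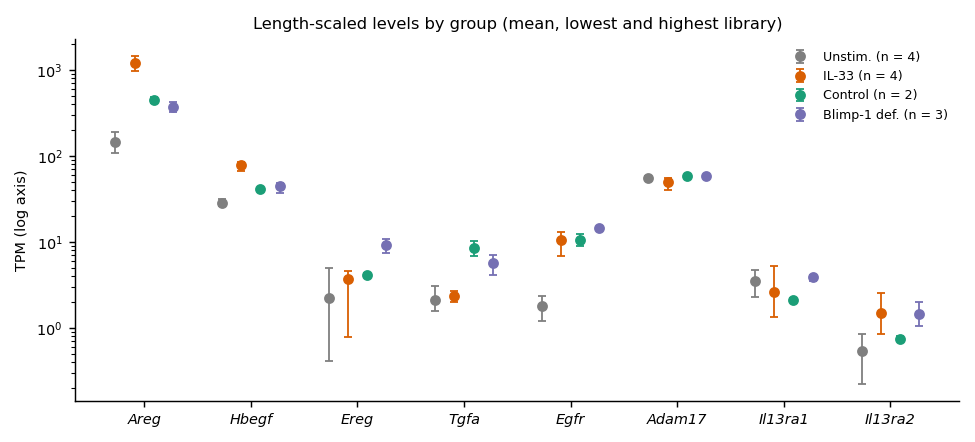
Points are mean TPM of the 8 genes in each group on a log axis, and bars run from the lowest to the highest library; Control is drawn from replicates 1 and 3. Areg is the highest of the 8 in all 4 groups, from 145 TPM in unstimulated to 1195 TPM in IL-33-stimulated ILC2s, and Il13ra2 has the lowest mean.

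Promoter sequences were read for 6 of the 8 genes from RefSeq (GRCm38.p6); Hbegf and Ereg have no entry in the table used. Each window holds the 250 bases before the transcription start. Those of Areg (chr5:91139349-91139598, plus strand), Egfr (chr11:16751953-16752202, plus strand) and Il13ra2 (chrX:147429193-147429442, minus strand) are shown because these genes rose after IL-33. They are written 5′ to 3′ along the gene, with motif matches in capitals.
Areg: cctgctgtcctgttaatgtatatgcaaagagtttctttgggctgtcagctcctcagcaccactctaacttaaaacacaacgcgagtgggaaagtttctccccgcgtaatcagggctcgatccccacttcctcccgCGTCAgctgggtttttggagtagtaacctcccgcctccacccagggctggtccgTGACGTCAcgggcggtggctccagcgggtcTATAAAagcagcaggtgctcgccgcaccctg
Egfr: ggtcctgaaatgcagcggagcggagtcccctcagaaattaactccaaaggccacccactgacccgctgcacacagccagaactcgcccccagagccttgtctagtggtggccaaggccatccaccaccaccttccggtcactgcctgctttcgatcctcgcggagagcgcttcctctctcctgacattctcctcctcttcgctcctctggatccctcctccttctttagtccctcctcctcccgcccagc
Il13ra2: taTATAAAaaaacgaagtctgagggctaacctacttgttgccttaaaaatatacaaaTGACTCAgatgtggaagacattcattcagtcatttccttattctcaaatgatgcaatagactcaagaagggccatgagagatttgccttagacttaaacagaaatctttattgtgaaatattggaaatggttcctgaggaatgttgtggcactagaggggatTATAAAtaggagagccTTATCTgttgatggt
Motifs were searched on both strands as fixed letters. The Areg window held the cAMP response element TGACGTCA, whose first base lies 61 bases before the start, and 508 of 32851 promoter windows of this length (1.55%) hold it. Its shorter core TGACG, which is part of the full element and occurs in 17.8% of windows, was also found once more on the minus strand at 115 bases. A TATA box (TATAAA, 12.4% of windows) lay 31 bases before the start of Areg and of Il13ra2, and again at 248 bases in Il13ra2. The Il13ra2 window also held an AP-1 motif (TGANTCA, 6.75% of windows) at 193 bases and a GATA motif (AGATAA, 9.99%) on the minus strand at 15 bases. No letters of these motifs, of the NF-kB motif (7.25%) or of the Blimp-1 core GTGAAAG (3.57%) were matched in the Egfr, Tgfa, Adam17 and Il13ra1 windows, and the last 2 of these motifs were matched in none of the 6. These matches describe the letters only.

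Areg (ENSMUSG00000029378.5, GRCm38 chromosome 5, 91139599 to 91148432, plus strand), which encodes amphiregulin, moved most after IL-33 among Areg, Hbegf, Ereg and Tgfa. It measured 65.0, 37.4, 37.0 and 64.6 CPM in unstimulated replicates 1 to 4 and 612, 560.4, 452 and 473 CPM in IL-33-stimulated replicates 1 to 4. Every stimulated library stood above every unstimulated one. Areg rose by 3.36 on the log2 scale (SE 0.24, edgeR adjusted p = 5.25e-05, quasi-likelihood, with p-values adjusted by Benjamini-Hochberg across 15466 genes), and 3.43 without IL-33-stimulated replicate 3 (adjusted p = 7.96e-07). Its neighbour Ereg starts upstream on the same strand and ends 45953 bases before Areg, in a cluster that also holds Btc and Epgn. In bulk libraries such as these, a change in the share of cells of a type and a change in RNA per cell cannot be told apart.

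Hbegf (ENSMUSG00000024486.6, chromosome 18, 36504927 to 36515805, minus strand), encoding heparin-binding EGF-like growth factor, also rose. It measured 18.7, 19.9, 21.5 and 17.4 CPM in unstimulated and 64.6, 69.2, 61.3 and 74.9 CPM in stimulated libraries. The groups did not overlap, and the spread within each was small beside the gap. Hbegf rose by a log2 fold change of 1.80 (SE 0.10, edgeR adjusted p = 1.56e-05), and 1.85 without IL-33-stimulated replicate 3.

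Ereg and Tgfa stayed low and did not pass the test. Ereg (ENSMUSG00000029377.5, chromosome 5, 91074622 to 91093646, plus strand), encoding epiregulin, measured 6.25, 0.487, 2.12 and 2.08 CPM in unstimulated and 6.57, 1.13, 7.29 and 7.15 CPM in stimulated libraries. The spread within groups was wide, with replicate 2 the lowest in each, and the groups overlapped. Its log2 fold change of 1.01 had a 95% interval of -0.81 to 2.84 (edgeR adjusted p = 0.347). The value ranged from 0.72 to 1.90 with a library left out, highest without Unstimulated replicate 1 (edgeR adjusted p = 0.124). Tgfa (ENSMUSG00000029999.14, chromosome 6, 86195223 to 86275719, plus strand), encoding TGF-alpha, measured 3.06, 3.52, 5.69 and 3.34 CPM in unstimulated and 4.57, 4.54, 6.50 and 6.55 CPM in stimulated libraries. These groups overlapped too, and the log2 fold change of 0.50 had an interval of -0.12 to 1.13 (edgeR adjusted p = 0.182). Without IL-33-stimulated replicate 3 the values were 0.86 for Ereg (adjusted p = 0.337) and 0.43 for Tgfa (adjusted p = 0.156). Counting strand is not stated, so reads from the 3.42% of Ereg exon bases shared with Gm19610, and the 1.82% of Tgfa shared with Gm43917, both on the opposite strand, cannot be told apart.

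Egfr (ENSMUSG00000020122.16, chromosome 11, 16752203 to 16918158, plus strand), the receptor of all 4 ligands, rose from a low level. It measured 6.84, 3.84, 7.61 and 5.29 CPM in unstimulated and 42.4, 52.0, 29.3 and 49.7 CPM in stimulated libraries. The groups did not overlap, and IL-33-stimulated replicate 3 was the lowest of the stimulated 4. Its log2 fold change was 2.88 (SE 0.27, edgeR adjusted p = 0.000172), and 3.04 without that replicate (adjusted p = 7.38e-07). Egfr is also expressed by epithelial and stromal cells, whose summed markers were 54.9 to 85.8 CPM and 427 to 782 CPM in unstimulated libraries. In stimulated libraries those sums were 4.00 to 8.47 CPM (epithelial) and 283 to 510 CPM (stromal and endothelial). Epcam alone gave 52.4 to 69.5 CPM of the epithelial sum in unstimulated and 2.27 to 3.55 CPM in stimulated libraries. Of the 8 stromal and endothelial markers, 4 were called lower and 1 higher after IL-33, where 16.1% of all genes tested were lower and 16.2% higher. The 2 endothelial markers went opposite ways. Pecam1 measured 48.3 to 80.9 CPM in unstimulated and 109 to 140.0 CPM in stimulated libraries. Cdh5 measured 23.4 to 42.9 CPM in unstimulated and 12.9 to 24.6 CPM in stimulated libraries. The part of epithelial, stromal and endothelial cells in the result was not tested. Of the 10 epithelial markers, Krt5 and Sftpc did not exceed 3 counts in any library of either group, and Scgb1a1 was at 0 after IL-33. All 8 stromal and endothelial markers were above 3 counts in both groups.

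Adam17 (ENSMUSG00000052593.16, chromosome 12, 21323509 to 21373632, minus strand), the shedding protease, ranked with the abundant genes of the set and differed little. It measured 114, 117, 108 and 118 CPM in unstimulated and 136, 136, 108 and 139 CPM in stimulated libraries. IL-33-stimulated replicate 3 lay within the unstimulated range and the other 3 stimulated libraries lay above it. With all 8 libraries the log2 fold change of 0.18 did not pass (95% interval -0.02 to 0.38, edgeR adjusted p = 0.143). Without IL-33-stimulated replicate 3 it was 0.26 and passed (SE 0.05, adjusted p = 0.00128). The direction turned on the TPM scale, at -0.15 on log2(TPM + 1) by limma (adjusted p = 0.355), where the median of all genes lay at -0.25. Iah1 on the opposite strand covers 4.35% of the exon bases of Adam17, and 3.38% of its 75-base stretches also occur in other genes.

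Il13ra1 (ENSMUSG00000017057.9, chromosome X, 36112110 to 36171259, plus strand), the signalling IL-13 receptor chain, measured 5.17, 2.52, 4.93 and 2.39 CPM in unstimulated and 2.56, 1.75, 7.49 and 2.41 CPM in stimulated libraries. The groups overlapped, with IL-33-stimulated replicate 3 the highest of all 8. The log2 fold change was -0.09 (95% interval -1.29 to 1.10, edgeR adjusted p = 0.904), and -0.73 without that replicate (interval -1.45 to -0.02, adjusted p = 0.0733). Replicate 3 also had the highest summed stromal and endothelial markers of the stimulated group (510.1 CPM, against 283 to 355 CPM) and the highest myeloid sum (137 CPM, against 49.4 to 129 CPM). Their part in the result was not tested.

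Il13ra2 (ENSMUSG00000031289.10, chromosome X, 147383476 to 147429192, minus strand), the decoy receptor, rested on few reads. Unstimulated libraries held 17, 5, 6 and 14 counts (0.590, 0.143, 0.255 and 0.441 CPM) and stimulated libraries held 38, 21, 8 and 62 counts (1.25, 0.680, 0.788 and 2.19 CPM). In CPM every stimulated library lay above every unstimulated one. A log2 fold change of 1.78 was fitted (SE 0.55, 95% interval 0.51 to 3.05, edgeR adjusted p = 0.0396), and 1.93 without IL-33-stimulated replicate 3 (adjusted p = 0.00892). The call was lost in 8 of 16 alternatives, among them leaving out any 1 of 5 single libraries (adjusted p up to 0.108).

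Thus 4 of the 8 genes were called higher and 0 lower after IL-33, where 32.3% of all 15466 genes tested were called, 16.2% as higher and 16.1% as lower. When IL-33-stimulated replicate 3 was left out, Adam17 joined them and 5 of 8 were higher, where 27.5% of 15733 genes were higher and 29.7% lower. The groups did not overlap for 4 of the 8, against 37.9% of all genes, and for 5 of the 8 without that replicate, against 58.7%.

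**Figure D2:**
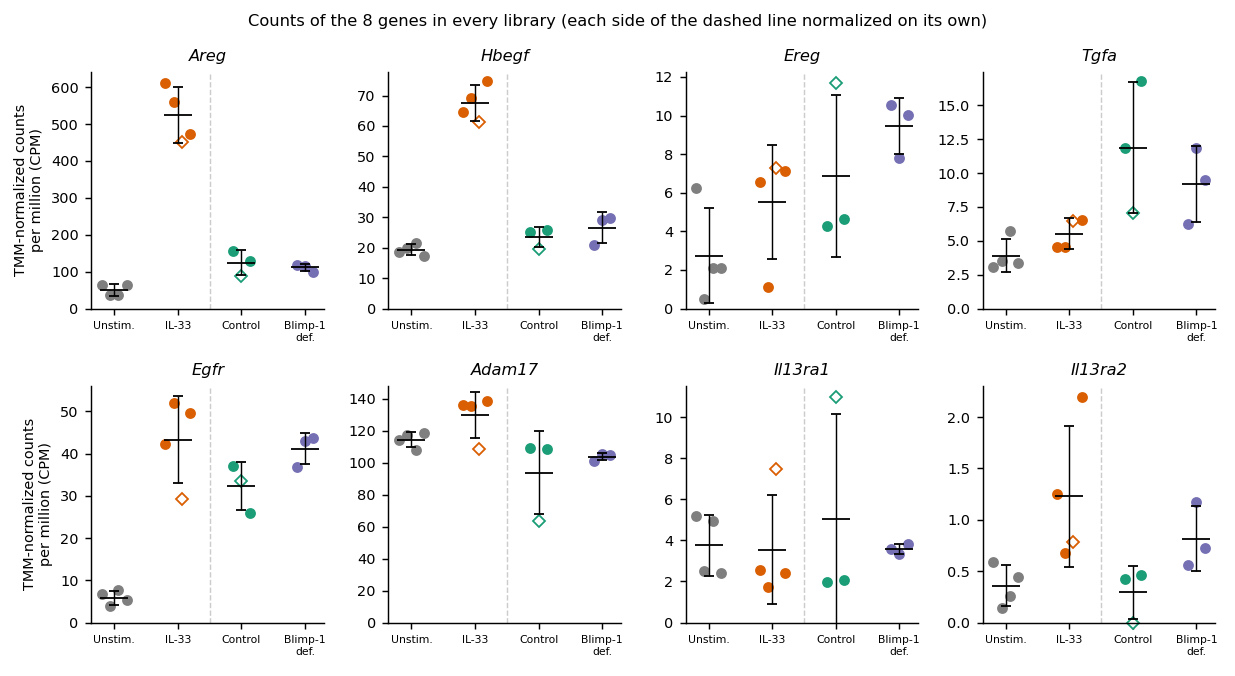
Each point is the TMM-normalized CPM of 1 library, with the group mean (line) and SD (bar); open diamonds mark IL-33-stimulated replicate 3 and Control replicate 2, and the 2 experiments were normalized apart. Areg, Hbegf, Egfr and Il13ra2 separate the stimulated from the unstimulated libraries, while Control replicate 2 is the highest library of its experiment for Ereg (11.7 CPM) and Il13ra1 (10.96 CPM).

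The genes whose log2 CPM ran closest to Areg over the 8 stimulation libraries, among 10809 genes with a mean of at least 5 CPM, were Tigit (Pearson r = 0.996), an inhibitory receptor gene, and Csf2rb2 (r = 0.995), a beta chain of the IL-3 receptor. The chemokine receptor gene Ccr1, the aminotransferase gene Got1 and the cytokine gene Il24 followed, each at r = 0.994. These points form 2 groups of 4 libraries, so r includes the step between the groups, and it is given as a description.

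The Blimp-1 experiment compared these genes in cells activated for 72 h. With all 6 libraries, 0 of the 8 were called by edgeR, where 0.756% of 17335 genes were (0.450% higher and 0.306% lower), and adjusted p ran from 0.438 to 0.902. At an unadjusted p below 0.05 the count was 0 of 8 by edgeR and 1 of 8 by DESeq2. The share of all genes at that level is not given here, so these counts cannot be weighed. After adjustment DESeq2 called 0 of 8, where it called 1108 of 30127 genes. On log2(TPM + 1) and log2(TPM + 0.1) limma called 0 of 7, where it called 2 and 1 of 13948 genes. Without Control replicate 2, Ereg and Il13ra1 were called higher and none lower, where 8.25% of 17968 genes were higher and 5.72% lower. That fit sets 2 Controls against 3 Blimp-1-deficient libraries. With all libraries the groups did not overlap for 1 of the 8, against 22.6% of all genes. That gene was Il13ra2, and its groups are apart only if the 0 counts of Control replicate 2 are taken as 0 CPM. Groups did not overlap for 5 of the 8 without Control replicate 2, against 50.5%.

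Among the ligands, Areg measured 156, 89.1 and 128 CPM in the 3 Controls, against 119, 115 and 100.5 CPM in Blimp-1-deficient cells. The Blimp-1-deficient values lay between Control replicate 2 and the other Controls. For Areg the log2 fold change was -0.17 (95% interval -0.66 to 0.32, edgeR adjusted p = 0.816), and -0.34 without Control replicate 2 (interval -0.60 to -0.08, adjusted p = 0.0822). Its sign turned when library size alone scaled the counts (0.20), a scaling that moved the median of all genes to 0.45. Hbegf measured 25.2, 19.7 and 25.7 CPM in the 3 Controls, against 20.8, 29.2 and 29.8 CPM in the Blimp-1-deficient cells. These overlapped, with a log2 fold change of 0.16 (interval -0.27 to 0.59, edgeR adjusted p = 0.797) and 0.07 without Control replicate 2.

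Ereg measured 4.29, 11.7 and 4.63 CPM in the 3 Controls, against 10.5, 7.79 and 10.04 CPM in the Blimp-1-deficient cells. Control replicate 2 was the highest of the 6 and the other Controls were the lowest. The log2 fold change was 0.56 with all libraries (95% interval -0.42 to 1.53, edgeR adjusted p = 0.673) and 1.09 without Control replicate 2 (SE 0.16, interval 0.73 to 1.46, adjusted p = 0.00614). Tgfa measured 11.8, 7.06 and 16.8 CPM in the 3 Controls, against 6.26, 11.8 and 9.47 CPM in the Blimp-1-deficient cells. The groups overlapped with and without Control replicate 2, at log2 fold changes of -0.41 (interval -1.26 to 0.44, edgeR adjusted p = 0.725) and -0.63 (adjusted p = 0.142).

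The receptor and the protease did not pass with or without Control replicate 2. Egfr measured 37.1, 33.6 and 26.0 CPM in the 3 Controls, against 36.9, 42.9 and 43.8 CPM in the Blimp-1-deficient cells. The groups touched at Control replicate 1, and the log2 fold change was 0.36 (95% interval -0.02 to 0.73, edgeR adjusted p = 0.438) and 0.39 without Control replicate 2 (adjusted p = 0.129). Adam17 measured 109, 63.8 and 108 CPM in the 3 Controls, against 101, 105 and 105 CPM in the Blimp-1-deficient cells. Control replicate 2 was far below the rest, and the log2 fold change was 0.13 with it (adjusted p = 0.863) and -0.060 without it (edgeR, interval -0.18 to 0.06, adjusted p = 0.466).

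Of the IL-13 receptors, Il13ra1 measured 1.99, 10.96 and 2.09 CPM in the 3 Controls, against 3.58, 3.31 and 3.83 CPM in the Blimp-1-deficient cells. Control replicate 2 was again the highest and the other Controls the lowest. The log2 fold change was -0.35 with all libraries (95% interval -2.00 to 1.30, edgeR adjusted p = 0.902) and 0.82 without Control replicate 2 (SE 0.15, adjusted p = 0.0159). Il13ra2 had 35, 0 and 44 counts in Controls (0.422, 0 and 0.465 CPM) and 46, 91 and 70 counts in Blimp-1-deficient libraries (0.556, 1.17 and 0.724 CPM). The 0 in Control replicate 2 allows up to 0.731 CPM, the value of 3 counts there, so at this depth it sets that library below Blimp-1-deficient replicate 2 (1.17 CPM) and not below the other 4. The log2 fold change of Il13ra2 was 1.13 (interval -0.38 to 2.64, edgeR adjusted p = 0.566) and 0.89 without that library (interval 0.02 to 1.75, adjusted p = 0.153).

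Summed stromal and endothelial markers moved with Ereg and Il13ra1 in this experiment. The 8 stromal and endothelial markers summed to 217 and 338 CPM in Controls 1 and 3, to 497, 561 and 750.0 CPM in Blimp-1-deficient cells, and to 4097 CPM in Control replicate 2. All 8 were above 3 counts in both groups. Controls 1 and 3 were the lowest and Control replicate 2 the highest in these sums, and also in Ereg and Il13ra1, whereas the order among the 3 Blimp-1-deficient libraries differed. Collagen genes carried the sum in Control replicate 2 (Col1a1 at 2171 CPM), whereas the endothelial markers Pecam1 (31.7 CPM) and Cdh5 (17.8 CPM) were lowest there. Epithelial sums were also lowest in that library, at 8.04 CPM, and reached 26.4 CPM among the other 5. The ILC2 marker sums were 5946 to 7061 CPM in Controls and 5483 to 5747 CPM in Blimp-1-deficient libraries, and T cell sums 21.9 to 23.1 and 24.3 to 29.0 CPM. Of all marker genes tested with all libraries, 1 was called, an NK cell and ILC1 marker that was lower, where 0.756% of all genes were called. Marker calls without Control replicate 2 are not given here. Myeloid marker sums overlapped, at 36.6, 79.2 and 141 CPM in the 3 Controls, against 36.5, 98.7 and 124 CPM in Blimp-1-deficient cells, with 8 of 10 and 10 of 10 markers above 3 counts and S100a9 at 0 in Controls. Their part in the result was not tested.

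**Figure D3:**
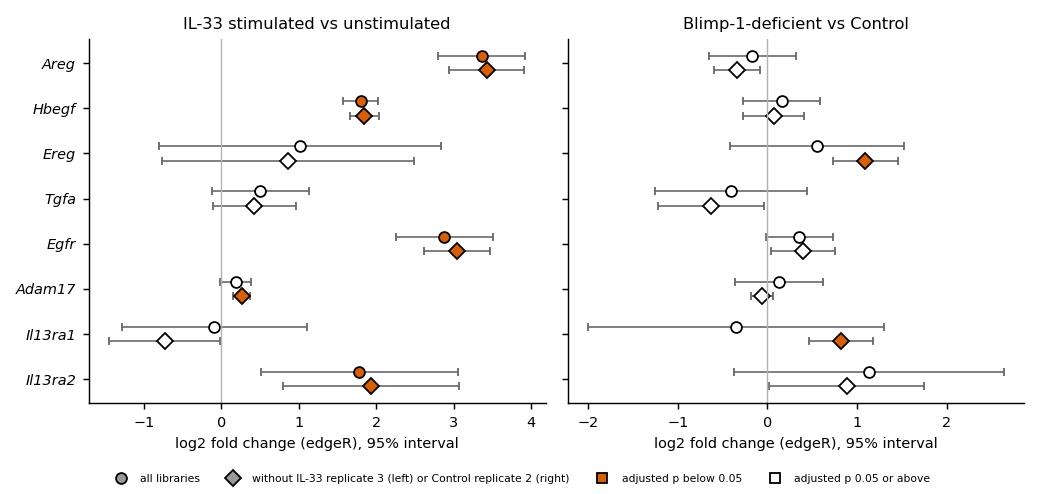
Log2 fold changes from edgeR with 95% intervals, for all libraries (circles) and without the library that stood apart (diamonds), with adjusted p below 0.05 filled. After IL-33 the values of Areg, Hbegf, Egfr and Il13ra2 are filled in both fits, while in the Blimp-1 experiment the values of Ereg (1.09) and Il13ra1 (0.82) are filled without Control replicate 2 and no value is filled with it.

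Around these genes, 6 lists of the ligand, receptor and signalling machinery were counted, beside a median of 0.06 (log2 fold change) over all genes tested in the stimulation experiment. The counts stand against 16.2% of all genes higher and 16.1% lower after IL-33, and 27.5% and 29.7% without IL-33-stimulated replicate 3. Of 5 other EGF-family ligands tested, 0 were higher and 1 was lower after IL-33 (median 0.24, and -0.61 without IL-33-stimulated replicate 3 with the same counts). That gene was Btc, encoding betacellulin, at 3.51 ± 0.29 CPM (SD, n = 4) before and 0.833 ± 0.893 CPM after (log2 fold change -2.15, edgeR adjusted p = 0.0343, and -3.16 without that replicate). Nrg3 (3.48, adjusted p = 0.132) and Nrg1 (1.85, adjusted p = 0.221), encoding neuregulins, gave -0.97 and -0.61 without it. None of the 3 other ERBB receptors was called by edgeR (median 0.38, and -0.08 with 1 called lower without that replicate), with Erbb3 at 9.81 ± 1.44 and 12.8 ± 1.20 CPM (log2 fold change 0.38, adjusted p = 0.101). Erbb2 gave 0.11 (adjusted p = 0.919) and passed as lower without IL-33-stimulated replicate 3 (-1.04, adjusted p = 0.0227). Erbb4 gave 3.92 (adjusted p = 0.0889), and -0.08 without that replicate (adjusted p = 0.849).

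Of 13 genes of the shedding machinery beside Adam17, 3 were higher and 4 lower after IL-33 (median 0.02), and 4 and 6 without IL-33-stimulated replicate 3. Furin, which trims the pro-domain from ADAM precursors, rose from 787 ± 111 to 5059.9 ± 1468 CPM (SD, n = 4; log2 fold change 2.68, edgeR adjusted p = 0.000161). Adam8 (1.14) and Adam15 (1.05) rose as well, and Adam19 (-1.10), Adam12 (-0.89), Frmd8 (-0.39) and Adam10 (-0.38) fell. ADAM10 is the usual sheddase of betacellulin and EGF, and FRMD8 stabilises ADAM17 at the cell surface. Rhbdf2, whose product iRhom2 carries ADAM17 to the surface, gave 0.33 (edgeR adjusted p = 0.330), and 0.54 without IL-33-stimulated replicate 3, which passed (adjusted p = 0.00167). Timp3, an inhibitor of ADAM17, gave -0.99 (adjusted p = 0.176), and -1.73 without that replicate, which passed (adjusted p = 0.000375).

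Of 14 partners of the IL-13 receptors, 4 were higher and 0 lower (median 0.18), and 8 and 0 without IL-33-stimulated replicate 3 (median 0.31). Il13 itself gave the largest log2 fold change of those called at 6.68 (edgeR adjusted p = 3.80e-05), followed by Il4 (1.68), the kinase gene Jak2 (1.54) and the common gamma chain gene Il2rg (0.40). Il4ra, the partner chain of Il13ra1, measured 291 ± 9.12 CPM in unstimulated and 335 ± 89.3 CPM in stimulated libraries (SD, n = 4; log2 fold change 0.20, edgeR adjusted p = 0.432), and passed without IL-33-stimulated replicate 3 (0.38, adjusted p = 0.000166). Stat6 gave 0.12 (adjusted p = 0.519), and 0.24 without that replicate (adjusted p = 0.00270).

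Downstream of EGFR, 2 of 16 adaptor and MAP kinase genes were higher and 3 lower (median 0.20), and 6 and 6 without IL-33-stimulated replicate 3 (median 0.11). Map2k1 (0.53) and Hras (0.51) rose, and Mapk3 (-1.13) and Gab2 (-0.77) were among those that fell. Of 15 feedback inhibitors, 1 was higher and 3 lower (median 0.00), and 2 and 5 without that replicate (median 0.02). Spry1 fell from 123 ± 1.15 to 41.6 ± 6.94 CPM (SD, n = 4; log2 fold change -1.56, edgeR adjusted p = 6.25e-05), Lrig2 (-0.46) and Spred2 (-0.36) fell less, and Spry2 rose (0.67). Sprouty and Spred proteins restrain the MAP kinase cascade, and LRIG proteins bind ERBB receptors.

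In the Blimp-1 experiment, edgeR called 0 of 80 list genes tested, the repair factors of the closing section included, with all 6 libraries, where 0.756% of all genes were called. At an unadjusted p below 0.05 the count was 22, and the share of all genes at that level is not given here. DESeq2 called 12 of 84, where it called 1108 of 30127 genes. On log2(TPM + 1) limma called 0 of 73, where it called 2 of 13948 genes. Without Control replicate 2 the partners of the IL-13 receptors gave 5 higher and 2 lower of 14, where 8.25% of all genes were higher and 5.72% lower (median 0.02, against 0.01 for all genes). Il4ra measured 431 ± 1.25 CPM (SD, n = 2) in Controls 1 and 3 and 295 ± 15.9 CPM (SD, n = 3) in Blimp-1-deficient libraries (log2 fold change -0.54, edgeR adjusted p = 0.00378), and with all libraries it gave -0.49 (adjusted p = 0.135). Socs3 (-0.84) was lower too, and Socs1 (0.58), Jak2 (0.53), Ptpn6 (0.44), Il2rg (0.38) and Stat6 (0.38) were higher. Il13 gave -0.40 (adjusted p = 0.116) and Il4 gave -0.02 (adjusted p = 0.922).

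The other lists gave fewer calls without Control replicate 2. Of 4 EGF-family ligands tested, Btc was lower (-0.88), and of 2 ERBB receptors tested, Erbb2 was higher (0.76). In the shedding list Timp1 (1.08), Adam12 (0.86) and Timp2 (0.76) were higher and Adam19 (-0.61) was lower, of 13 tested. In the MAP kinase list 1 of 16 was higher and 2 were lower, Sos1 (-0.82) and Hras (-0.31). In the feedback list Lrig1 (1.74) and Spry2 (0.44) were higher and Dusp6 (-0.52) and Rasa1 (-0.41) were lower, of 15. The medians of these 5 lists were 0.06, 0.42, -0.05, 0.01 and -0.01. Stromal and endothelial marker sums were 217 and 338 CPM in Controls 1 and 3, against 497 to 750 CPM in Blimp-1-deficient libraries. Their part in these calls was not tested.

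**Figure D4:**
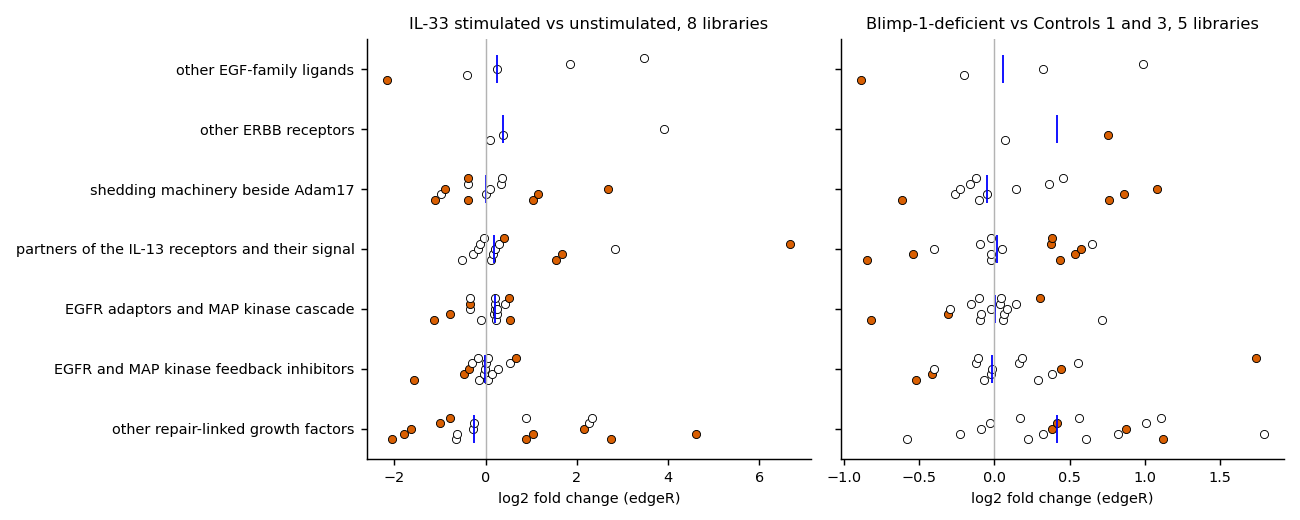
Each point is the log2 fold change of 1 list gene from edgeR, filled where the adjusted p was below 0.05, and blue marks are list medians; the right panel leaves out Control replicate 2. After IL-33 calls lie on both sides of 0 in 4 of the lists, Il13 (6.68) lies farthest to the right, and in the right panel Lrig1 (1.74) is the filled point with the highest value.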

How the data were processed

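RNA-seq of sorted lung ILC2s was examined in 14 libraries, each from 1 mouse by the series description (figure legends of the paper speak of sorts from pooled animals, without naming the libraries), by SMART-seq v4 and Nextera XT with paired-end reads of 75 bases. Per the paper's methods the authors trimmed with cutadapt, aligned to GRCm38 with HISAT2 and counted per gene with Subread, and deposited raw counts and TPM for each experiment, while the submitters' processing notes list Bowtie2, Subread, DESeq2 and mm10. The strand setting is not given in the sources used here, and reads carry no molecular identifiers, so a limit from 3 counts covers counting error only. The members and lists were chosen with earlier results of these data known.

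Counts were analysed per experiment with edgeR 4.0.16 in R 4.3.3 (TMM, filterByExpr, quasi-likelihood test, two-sided, Benjamini-Hochberg over all genes tested, threshold 0.05). CPM are TMM-scaled without a prior count, and folds are the fit's. Alternatives were DESeq2 1.42.0, its size factors in edgeR, library size alone, library sizes without genes over 5% of a library, no filter, a mean of at least 50 counts, limma 3.58.1 on log2(TPM + 1) and log2(TPM + 0.1) where the mean TPM was 1 or more, robust estimation, the replicate number as a block, and each library left out. The list genes named are at most 6 per list, by size of change among those with an adjusted p below 0.05 and a mean of at least 1 CPM, plus Il13, Il4, Il4ra, Il2rg, Stat6, Erbb2, Erbb3, Rhbdf2, Adam10 and Timp3, and the 5 genes most like Areg by Pearson r of log2 CPM (prior count 2). Nrg1, Nrg3 and Erbb4, outside this rule, were named after their values were seen. Some list genes that meet it are not reported here. Coordinates come from GENCODE (GRCm38). Columns of the deposited tables were all mapped to samples. Plots were made in matplotlib 3.10.9 (Python 3.11).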

Additional observations from a re-analysis of the deposited data

Results flagged for a closer look

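For 3 member values, 1 of the 4 libraries of a group lay far from the other 3 by Dixon's test, which chance alone triggers in about 1 in 20 groups. Ereg measured 1.13 CPM in IL-33-stimulated replicate 2, against 6.57 to 7.29 CPM in the other 3. Adam17 measured 108 CPM in IL-33-stimulated replicate 3, against 136 to 139 CPM in the others. Il13ra1 measured 7.49 CPM in IL-33-stimulated replicate 3, against 1.75 to 2.56 CPM in the others. The same replicate 3 had the fewest counts of its experiment, 10470125.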

How the results depend on the processing

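In the stimulation experiment the log2 fold changes of Areg (3.07 to 3.56), Hbegf (1.44 to 1.86) and Egfr (2.03 to 3.04) kept their direction and their call in all 17 alternatives. Members called ranged from 3 to 5 with each library left out. Il13ra2 lost its call with no filter (adjusted p = 0.103), by limma on TPM (0.153 and 0.124) and without 5 single libraries (0.0669 to 0.108): Unstimulated replicates 2, 3 and 4 and IL-33-stimulated replicates 1 and 4. Adam17 ranged from 0.15 to 0.26 with a library left out, was called without Unstimulated replicate 1, 2 or 4 or without IL-33-stimulated replicate 3 (adjusted p 0.00128 to 0.0342), and turned to -0.15 and -0.16 by limma on log2(TPM + 1) and log2(TPM + 0.1). Il13ra1 ranged from -0.73 to 0.21 with a library left out. List genes called went from 15 higher and 16 lower to 25 and 26 without IL-33-stimulated replicate 3. No gene exceeded 5% of a library there, so that alternative was not run.

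In the Blimp-1 experiment, leaving out a library gave 0 to 2 members called, 2 of them only without Control replicate 2, and list genes called went from 0 and 0 to 16 higher and 8 lower without it. The sign turned for Areg, Tgfa, Adam17 and Il13ra1, none called with all libraries. Areg gave 0.20 by library size alone and 1.60 and 1.65 by limma on both TPM scales, and ranged from -0.34 to 0.043 with a library left out. Tgfa gave 0.50 and 1.17 by limma, and Adam17 ranged from -0.060 to 0.27 with a library left out. Il13ra1 gave 0.74 by library size alone, 1.06 and 1.64 by limma and 0.066 with the replicate block, and ranged from -0.74 to 0.82 with a library left out. These scalings moved the median of all genes to 1.28 and 1.69 by limma and to 0.45 by library size alone; in the stimulation experiment limma moved it to -0.25 and -0.29. Other causes were not tested. Il13ra2 was tested in 13 alternatives and called in none.

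All-gene calls rose from 4992 to 8994 without IL-33-stimulated replicate 3 and from 131 to 2510 without Control replicate 2. In the latter experiment they were 0 to 9 with any other library left out, 1108 by DESeq2, 256 with a mean of at least 50 counts, and 2 and 1 by limma. By the series description replicate numbers named different mice, and same-numbered libraries deviated together at r of -0.14 to 0.28 (stimulation) and -0.13 to 0.12 (Blimp-1), so they were not taken as pairs. With the replicate block, 4 members were called after IL-33 and 0 in the Blimp-1 experiment, as without it, and all-gene calls went from 4992 to 3700 and from 131 to 0. Each library correlated best with its own number in 2 of 4 and 1 of 3 cases.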

Other observations

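Other growth factors linked to tissue repair were counted as a list of 18 genes, of which 17 were tested after IL-33. Of these, 5 were higher and 5 lower (their median was -0.26 on the log2 scale, against 0.06 for all genes), and 5 and 7 without IL-33-stimulated replicate 3 (median -0.34, against -0.05). Of all genes, 16.2% were higher and 16.1% lower, and 27.5% and 29.7% without that replicate. Penk, encoding the opioid precursor proenkephalin, rose from 2.02 ± 1.16 to 49.5 ± 28.9 CPM (SD, n = 4; log2 fold change 4.61, edgeR adjusted p = 0.000430). The vascular growth factor genes Vegfc (2.75) and Vegfa (2.16) rose, whereas the growth factor genes Igf1 (-2.05), Fgf2 (-1.79) and Bmp2 (-1.64) fell. Without IL-33-stimulated replicate 3, Penk stood at 35.1 ± 1.59 CPM in the stimulated group (SD, n = 3; log2 fold change 4.12).

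In the Blimp-1 experiment none of the 16 repair factors tested was called by edgeR with all 6 libraries. Without Control replicate 2, 4 of 17 were higher and 0 lower (median 0.42, against 0.01 for all genes): Pdgfa (1.12), Vegfa (0.88), Fgf2 (0.42) and Vegfc (0.39). Of all genes, 8.25% were higher and 5.72% lower in that fit. Vegfc measured 61.6 ± 0.09 CPM in Controls 1 and 3 (SD, n = 2) and 80.0 ± 7.37 CPM in Blimp-1-deficient libraries (SD, n = 3; edgeR adjusted p = 0.0212), with 0.68 over all libraries (adjusted p = 0.515). The stromal and endothelial marker sums were also lower in Controls 1 and 3 (217 and 338 CPM) than in Blimp-1-deficient libraries (497 to 750.0 CPM), and their part in the result was not tested.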
